A study of Mus musculus with 6 samples.

Results

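Acute-phase proteins and metallothioneins were followed through 10 genes in inguinal fat, which lies under the skin of the groin: Saa1, Saa2, Saa3, Hp, Orm1, Lbp, Cp, Lcn2, Mt1 and Mt2. They were chosen by name, as every non-control probe whose gene name on the array equals 1 of these symbols, which gave 13 of 55681 non-control probes. All 13 passed the filter on dim probes and were tested among 38457 kept probes. The samples came from male C57BL/6J mice and were hybridised to 1-colour Agilent arrays, 3 arrays in each of 2 groups. Mice of the group titled DIO_CR_WR received, from the age of 2 months and for 1 month, a diet in which fat gave 60% of the energy, then calorie restriction of some 3 weeks that brought them to the weight of chow-fed mice of equal age, and last free access to the fatty diet, the period of weight regain. Mice of the group titled DIO ate chow until that last period and then the same fatty diet. The protocol calls the first group DIO and the second CTR, whereas the names used here are those of the titles. The age labels are 6, 7 and 8 months for DIO and 9, 10 and 11 months for DIO_CR_WR. They rise by 1 month from each listed sample to the next and may not be true ages, so values with age as a covariate are given only as an alternative. The labels do not say whether each sample is a single mouse, so p-values measure the spread between these samples, which may be technical.

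The acute-phase response is the change in blood proteins that follows infection, injury or inflammation, driven by cytokines such as interleukin 6 and interleukin 1 acting through the transcription factors STAT3, NF-κB and C/EBP. The liver makes most of these proteins, and fat makes several of them as well: serum amyloid A proteins (Saa1, Saa2, Saa3), which travel on lipoproteins and attract leukocytes, haptoglobin (Hp), which binds free haemoglobin, orosomucoid (Orm1), a carrier of small molecules, the lipopolysaccharide-binding protein (Lbp), the copper-carrying ferroxidase ceruloplasmin (Cp) and lipocalin 2 (Lcn2), which keeps iron from bacteria by binding their siderophores. Metallothioneins (Mt1, Mt2) are small cysteine-rich proteins that bind zinc and copper, and are induced by metals, glucocorticoids and inflammatory signals. Induction by metals runs through metal response elements read by the factor MTF1.

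The serum amyloid A genes are shown by sequence first, because all their DIO_CR_WR arrays lay above all their DIO arrays. The probe sequences of Saa1 and Saa3, 60 bases each and printed 5′ to 3′ in lower case with nothing marked, come from the array files, which place them on build mm9 at chr7:53996070-53996129 and chr7:53970389-53970448. No member probe shared a run of 25 bases with another probe of the array (0 of 13). The coding sequences of Saa1 and Saa2 are close to identical as background knowledge, so how far the Saa1 probe also reads Saa2 RNA was not tested.
Saa1 probe A_52_P318673: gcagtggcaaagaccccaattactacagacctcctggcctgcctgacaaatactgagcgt
Saa3 probe A_55_P1953169: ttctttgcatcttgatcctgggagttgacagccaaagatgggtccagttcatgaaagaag

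The 250 bases before the RefSeq start sites (GRCm38.p6, which is not the build of the probe positions) show how alike the genes are outside the transcript. Of the 10 genes 7 were found in the promoter table. Capitals mark matches of a C/EBP-type motif, TTNCNNAA on either strand, which 36.8% of 32851 promoter windows of the same length hold.
Saa1, chr7:46742981-46743230, minus strand: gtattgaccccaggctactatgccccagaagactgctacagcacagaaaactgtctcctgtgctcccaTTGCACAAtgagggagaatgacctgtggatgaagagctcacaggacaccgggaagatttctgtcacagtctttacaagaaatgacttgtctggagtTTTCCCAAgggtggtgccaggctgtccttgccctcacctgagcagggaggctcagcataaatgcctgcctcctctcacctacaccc
Saa2, chr7:46751583-46751832, plus strand: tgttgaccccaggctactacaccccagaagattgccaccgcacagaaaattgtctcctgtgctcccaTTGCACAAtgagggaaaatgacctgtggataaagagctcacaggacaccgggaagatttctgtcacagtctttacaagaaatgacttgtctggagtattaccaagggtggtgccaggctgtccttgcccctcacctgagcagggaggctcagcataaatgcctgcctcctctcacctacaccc
Saa3, chr7:46715677-46715926, minus strand: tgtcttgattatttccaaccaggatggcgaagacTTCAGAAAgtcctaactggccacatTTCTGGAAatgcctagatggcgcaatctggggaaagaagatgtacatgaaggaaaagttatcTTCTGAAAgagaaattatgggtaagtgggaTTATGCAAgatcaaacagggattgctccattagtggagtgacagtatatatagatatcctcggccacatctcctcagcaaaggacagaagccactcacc

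The windows of Saa1 and Saa2 were 94.8% identical over 251 aligned columns, and both hold TTGCACAA, 182 and 183 bases before the start. Saa1 has a further match 86 bases before it. Saa3 was 52.2% identical to Saa1 and 52.4% to Saa2 and has 4 matches, a number that 0.591% of all windows reach or pass. The letters of a κB-type motif (GGG, any 2 bases, then TTTCC) and of a STAT-type motif, TTCNNNGAA, both searched on either strand, are in none of the 3 windows (0 matches each), and are in 1.41% and 7.02% of all windows. A match describes letters only.

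All 3 serum amyloid A genes had more signal on every DIO_CR_WR array than on any DIO array. Values are the log2 signal of a probe minus the 75th percentile of its array, fold changes set DIO_CR_WR over DIO, each with a standard error (SE) from limma's model, and p-values are limma's two-sided moderated test, adjusted by Benjamini-Hochberg over all 38457 probes. Saa3, the form made mainly by macrophages and adipocytes in the mouse, had log2 levels of −0.85, −0.99 and −1.97 on DIO replicates 1 to 3 and 0.18, 0.38 and 0.82 on DIO_CR_WR replicates 1 to 3. The groups did not overlap, and DIO replicate 3 lay below the other DIO arrays. The difference was 3.32-fold, a log2 fold change of 1.73 ± 0.34 SE (n = 3 arrays each, unadjusted p = 0.00185, adjusted p = 0.122).

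Saa2, which like Saa1 encodes a form that circulates in the acute phase, is read by probe A_55_P1994807 at chr7:54009622-54009681 (mm9). It had log2 levels of −4.17, −4.27 and −5.02 in DIO and −1.98, −2.93 and −1.29 in DIO_CR_WR. Every DIO_CR_WR array was above every DIO array, although the DIO_CR_WR arrays were spread over more than the DIO arrays were (SD 0.82 against 0.46, n = 3). The difference was 5.35-fold, a log2 fold change of 2.42 ± 0.45 SE (limma's unadjusted p = 0.00129, adjusted p = 0.119). For Saa1 the log2 levels were −0.03, −0.12 and −0.37 in DIO and 0.41, 0.62 and 0.91 in DIO_CR_WR, again with no overlap. Its difference was smaller, 1.77-fold (log2 0.82 ± 0.20 SE, limma's unadjusted p = 0.00479, adjusted p = 0.126). On each array the log2 signal of Saa2 relative to Saa1 was −4.65 to −4.14 in DIO and −3.55 to −2.20 in DIO_CR_WR, which differed by 1.60 (exact permutation test, two-sided p = 0.1, the smallest that 3 against 3 arrays allow).

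No probe of the whole array passed the adjusted threshold of 0.05 (0 of 38457, or 0%, with a smallest adjusted p of 0.118), and so none of the 13 did (0). At an unadjusted p under 0.05, 4 of the 13 probes were higher and 0 lower, where 5.29% of all kept probes were higher and 21% lower. These 4 were Saa1, Saa2, Saa3 and the variant 1 probe of Cp. Their number was 2 with the labelled age as a covariate, 7 with quantile normalization and 8 with spike-in scaling, where 4.67%, 6.89% and 20.8% of all kept probes were higher. At least 2-fold differences, with no test, were seen upwards for 3 of the 13 (Saa2, Saa3 and the variant 1 Cp probe) and downwards for 0, where 2.88% of all kept probes were that much higher and 6.3% that much lower. The groups' arrays did not overlap for 6 of the 13, all of them higher in DIO_CR_WR, where 7.21% of all kept probes were higher without overlap and 25.9% lower without overlap. The 6 were Saa1, Saa2, Saa3, both Cp probes and the second Lbp probe. The median log2 fold change was 0.48 over the 13 probes and −0.19 over all kept probes. Because DIO replicate 1 shares slide 1 with the 3 DIO_CR_WR arrays and the other DIO arrays are on slide 2, a model with the slide as a block compares the groups on slide 1 alone in effect. There the log2 fold changes of Saa1, Saa2 and Saa3 were 0.68, 2.11 and 1.31. Without DIO replicate 1, when the groups lie on different slides, 3 member probes passed the adjusted threshold, namely Saa2 (adjusted p = 0.0403), Saa3 (0.0349) and the variant 1 Cp probe (0.0262), among 5361 probes of the whole array in limma's test.

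**Figure D1:**
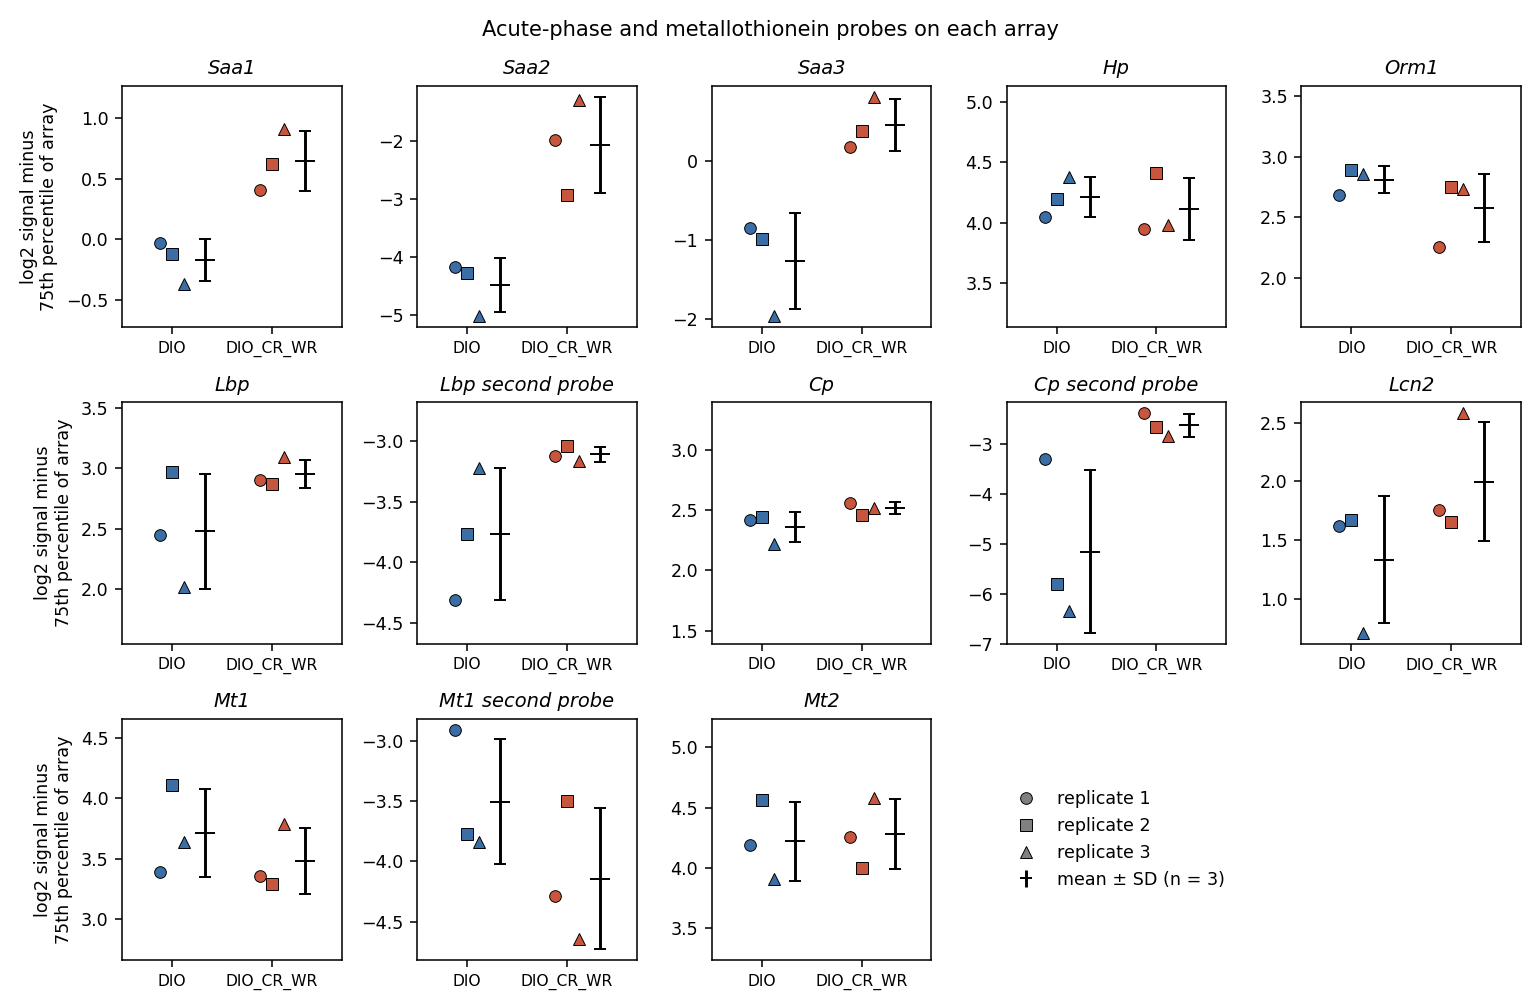
Log2 signal minus the 75th percentile of the array for each of the 13 probes, with the 3 DIO arrays in blue and the 3 DIO_CR_WR arrays in red, a marker shape per replicate number, and the mean ± SD (n = 3) in black; every panel has its own vertical range of at least 2 log2 units. All DIO_CR_WR arrays lie above all DIO arrays for Saa1, Saa2 and Saa3, while the groups overlap for Hp, Orm1, Lcn2, Mt1 and Mt2.

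Haptoglobin and orosomucoid, abundant acute-phase proteins of liver and fat, showed no such separation. Hp, read by probe A_55_P2048607 at chr8:112099045-112099104 (mm9), had log2 levels of 4.05, 4.20 and 4.38 in DIO and 3.95, 4.41 and 3.98 in DIO_CR_WR, and the groups overlapped. Its log2 fold change was −0.09 ± 0.19 SE, with a 95% interval of −0.56 to 0.37 (limma's adjusted p = 0.781). Orm1, read by probe A_51_P336325 at chr4:63006483-63007090, had 2.68, 2.89 and 2.86 in DIO and 2.25, 2.75 and 2.73 in DIO_CR_WR, with DIO_CR_WR replicate 1 the lowest array. Its log2 fold change was −0.24 ± 0.20 SE, with a 95% interval of −0.70 to 0.23 (limma's adjusted p = 0.466). The sign of both turned with quantile normalization (0.30 for Hp and 0.007 for Orm1) and with spike-in scaling (0.41 and 0.27). A ratio within an array does not depend on a scaling of the whole array, and the log2 signal of Saa3 relative to Hp on the same array ran from −6.35 to −4.90 in DIO and from −4.03 to −3.16 in DIO_CR_WR, a difference of 1.82 (exact permutation test, two-sided p = 0.1). For Saa1 relative to Orm1 that difference was 1.06 (exact permutation test, two-sided p = 0.1), again with no overlap. Both ratios reuse the values given above, so they are no separate support for the differences of Saa1 and Saa3.

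Lbp, which carries bacterial lipopolysaccharide to the receptor CD14, was read by 2 probes. The probe A_51_P454008 at chr2:158154142-158157684 (mm9) covers 3543 bases of genome, more than its 60 bases, so it crosses a splice junction. Its log2 levels were 2.45, 2.97 and 2.02 in DIO and 2.90, 2.87 and 3.09 in DIO_CR_WR. DIO replicate 2 lay among the DIO_CR_WR arrays, and the log2 fold change was 0.48 ± 0.26 SE (95% interval −0.15 to 1.105, limma's adjusted p = 0.283). The second probe, A_55_P2028986, lies at chr2:158136176-158136235 and had −4.31, −3.77 and −3.22 in DIO and −3.12, −3.04 and −3.16 in DIO_CR_WR. These did not overlap, though the highest DIO array lay close to the lowest DIO_CR_WR array, and the log2 fold change was 0.66 ± 0.28 SE (limma's adjusted p = 0.199). It was −0.13 with the labelled age as a covariate and 1.2 with the slide as a block.

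Ceruloplasmin also had 2 probes, which the file assigns to different transcript variants and which differed in how far the groups stood apart. The probe A_55_P2111302 (variant 2, chr3:19889071-19889130) had log2 levels of 2.42, 2.44 and 2.22 in DIO and 2.56, 2.46 and 2.52 in DIO_CR_WR, a log2 fold change of 0.15 ± 0.15 SE (95% interval −0.21 to 0.51, limma's adjusted p = 0.540). Its groups did not overlap, with DIO replicate 2 just below DIO_CR_WR replicate 2. The probe A_55_P2087607 (variant 1, chr3:19907511-19907570) had −3.30, −5.81 and −6.35 in DIO and −2.38, −2.66 and −2.83 in DIO_CR_WR. It was well above background on 2 of 3 DIO arrays and on 3 of 3 DIO_CR_WR arrays. Its log2 fold change was 2.53 ± 0.76 SE, or 5.78-fold (limma's unadjusted p = 0.0139, adjusted p = 0.137), 0.68 under a slide block, 3.46 when DIO replicate 1 was left out and 5.16 with labelled age as a covariate. The low values were those of the DIO arrays of slide 2, and since not every DIO array measured the probe, the size of its difference is loosely fixed.

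Lcn2, a lipocalin of neutrophils, macrophages and fat cells, is read by probe A_55_P2070869 at chr2:32240199-32240258 (mm9). It had log2 levels of 1.62, 1.67 and 0.71 in DIO and 1.76, 1.65 and 2.58 in DIO_CR_WR. Apart from DIO replicate 3 and DIO_CR_WR replicate 3, which were the lowest and the highest, the arrays lay between 1.62 and 1.76. The log2 fold change was 0.66 ± 0.36 SE (95% interval −0.21 to 1.54, limma's adjusted p = 0.285), and 0.35 without DIO replicate 3. Saa3 relative to Lcn2 on the same array was −2.68 to −2.48 in DIO and −1.76 to −1.26 in DIO_CR_WR, a log2 difference of 1.07 with no overlap (exact permutation test, two-sided p = 0.1).

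The same pair of arrays bounded several members. DIO replicate 3 was the lowest and DIO_CR_WR replicate 3 the highest of the 6 arrays for 6 of the 13 probes, namely Saa1, Saa2, Saa3, Lcn2, Mt2 and the junction probe of Lbp, an order that 2.75% of all kept probes had. For Saa3 the deviation from the 6-array mean was −1.56 on DIO replicate 3 and 1.23 on DIO_CR_WR replicate 3 (log2), for Lcn2 −0.96 and 0.91, and for Mt2 −0.34 and 0.33. Hp had the highest DIO value on that same DIO array, with a deviation of 0.22.

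**Figure D2:**
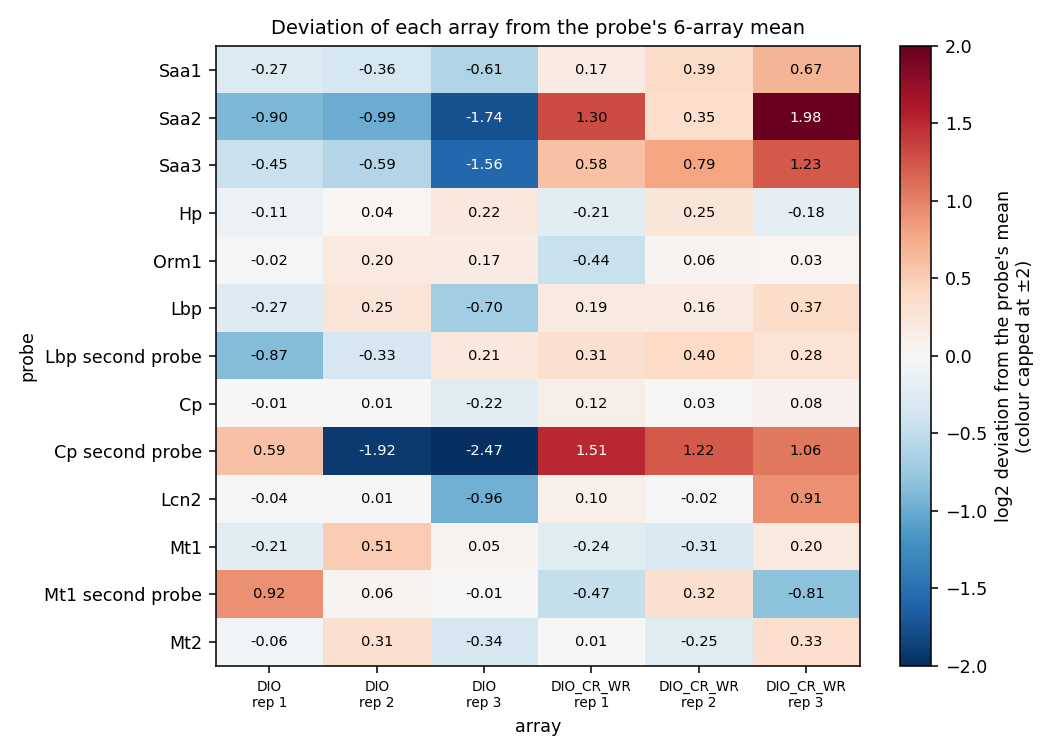
Log2 deviation of each of the 6 arrays from the probe's mean over all arrays, 1 row per probe and 1 column per array, with red above and blue below the mean and the colour capped at 2. Saa1, Saa2, Saa3, Lcn2, Lbp and Mt2 have their lowest value on DIO replicate 3 and their highest on DIO_CR_WR replicate 3, while the variant 1 Cp probe is low on both DIO arrays of slide 2.

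For all 3 metallothionein probes the groups overlapped. The 250 bases before their RefSeq starts are shown because MTF1 acts through metal response elements, with the core letters TGCACNC or TGCGCNC on either strand in capitals. At least 1 such match is in 21.4% of all windows.
Mt1, chr8:94178839-94179088, plus strand: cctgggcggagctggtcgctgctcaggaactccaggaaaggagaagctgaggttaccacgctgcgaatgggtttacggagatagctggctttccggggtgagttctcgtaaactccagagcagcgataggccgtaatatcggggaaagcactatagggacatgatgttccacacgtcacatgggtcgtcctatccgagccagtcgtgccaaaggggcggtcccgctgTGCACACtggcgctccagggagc
Mt2, chr8:94172368-94172617, plus strand: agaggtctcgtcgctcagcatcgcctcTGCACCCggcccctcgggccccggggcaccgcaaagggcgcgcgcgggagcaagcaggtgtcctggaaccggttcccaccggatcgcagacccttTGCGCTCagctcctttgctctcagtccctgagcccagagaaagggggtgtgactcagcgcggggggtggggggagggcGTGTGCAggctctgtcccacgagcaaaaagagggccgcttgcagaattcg

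In these windows Mt1 had 1 match and Mt2 had 3, and 1.26% of all windows hold at least 3. The match of Mt1 lies 23 bases before the listed start. Bases past that start were not searched, so the counts do not give the number of elements in either promoter. Mt2, the isoform read by probe A_51_P246317 at chr8:96697371-96697430 (mm9), had log2 levels of 4.19, 4.56 and 3.91 in DIO and 4.26, 4.0 and 4.58 in DIO_CR_WR. The groups covered the same range, and the log2 fold change was 0.06 ± 0.24 SE (95% interval −0.52 to 0.64, limma's adjusted p = 0.893). Mt1, its neighbour on the chromosome, read by probe A_66_P111660 at chr8:96704165-96704224, had 3.39, 4.11 and 3.64 in DIO and 3.36, 3.29 and 3.79 in DIO_CR_WR. Here too the groups overlapped, with a log2 fold change of −0.23 ± 0.25 SE (95% interval −0.83 to 0.36, limma's adjusted p = 0.572).

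On the same array Mt1 relative to Mt2 ran from −0.80 to −0.27 in DIO and from −0.90 to −0.71 in DIO_CR_WR (log2 difference −0.29, exact permutation test, two-sided p = 0.3). The second Mt1 probe, A_52_P423810 at chr8:96703844-96703903, had −2.91, −3.77 and −3.84 in DIO and −4.29, −3.50 and −4.64 in DIO_CR_WR, and was well above background on 2 of 3 DIO_CR_WR arrays. Its log2 fold change was −0.64 ± 0.38 SE (limma's adjusted p = 0.314), and −1.24 with the slide as a block. The upper ends of the 95% intervals, 0.36 for Mt1 and 0.64 for Mt2, lay below the lower ends for Saa3 (0.91) and Saa2 (1.34), while the interval of Saa1 (0.35 to 1.29) overlapped those of Mt1 and Mt2.

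**Figure D3:**
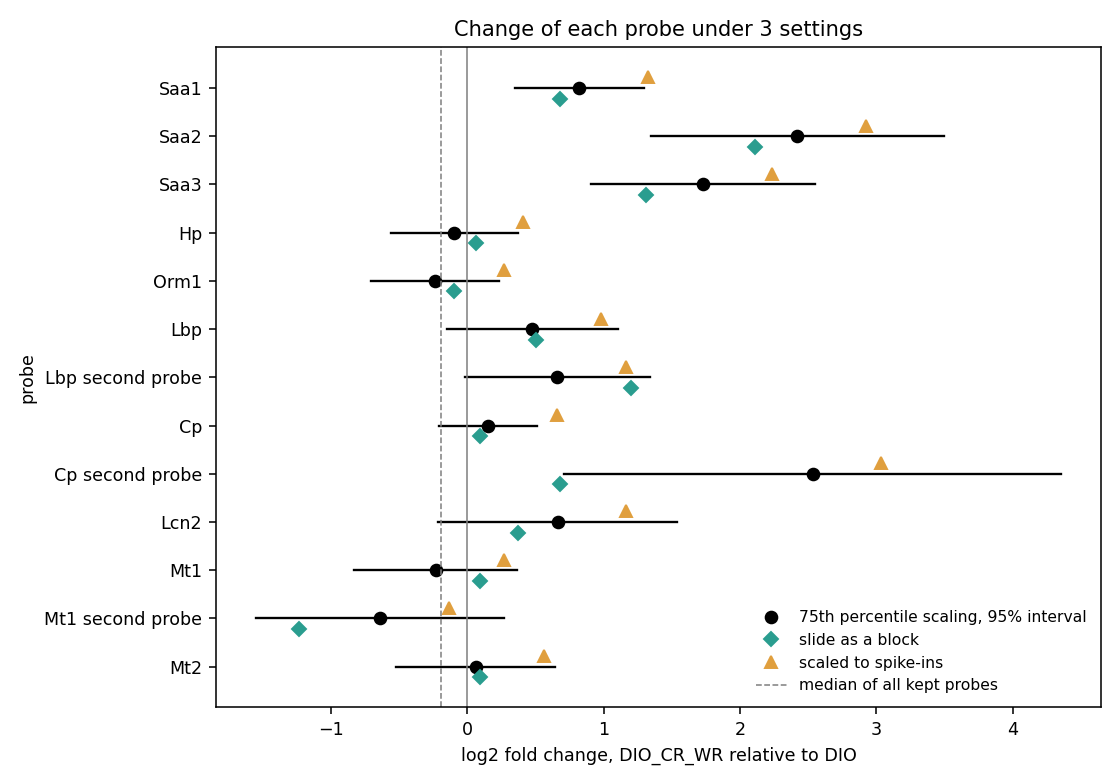
Log2 fold change of DIO_CR_WR relative to DIO for each of the 13 probes, with 75th percentile scaling as black points with 95% intervals from limma, a slide block as green diamonds and spike-in scaling as orange triangles. The 3 serum amyloid A probes lie above 0 in all 3 settings, from 0.68 to 2.92. Hp, Orm1 and the first Mt1 probe lie on different sides of 0 depending on the setting, and the second Mt1 probe lies below 0 in all 3.

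Other positive acute-phase genes gave a mixed picture. Of 21 listed genes outside the 10, 14 were measured by 16 kept probes. At an unadjusted p under 0.05, 4 of these were higher, where 5.29% of all kept probes were, and 0 passed over all probes. The 2 lower ones, Apcs and Hamp2, passed the filter only through the DIO arrays, were well above background on 0 DIO_CR_WR arrays and count as no measured difference. The median log2 fold change was 0.49 (0.68 over the 14 probes measured in both groups), beside −0.19 for all kept probes. The number higher was 8 with spike-in scaling and 0 with labelled age as a covariate, where 20.8% and 4.67% of all kept probes were higher. The 2 with the smallest p were the protease inhibitor genes Serpina3m and Serpina3n. Serpina3m had log2 levels of −0.15, 0.38 and 0.21 in DIO and 1.39, 2.06 and 2.91 in DIO_CR_WR, a 3.92-fold difference (log2 1.97 ± 0.39 SE, limma's adjusted p = 0.122). Serpina3n had 2.30, 2.25 and 1.91 in DIO and 2.97, 2.86 and 3.29 in DIO_CR_WR, a 1.85-fold difference (log2 0.89 ± 0.20 SE, limma's adjusted p = 0.124). These genes belong to a cluster of close copies, so the probes may read more than 1 of them. Paralogues of the 10 genes, and Crp, which is not a paralogue of them, were named after their values were seen. Orm2 had a log2 fold change of 0.41 ± 0.23 SE, Orm3 0.19 ± 0.25 SE and Mt3 0.06 ± 0.18 SE. Mt4, well above background on 3 arrays, had −0.18 ± 0.41 SE, and Saa4 and Crp were well above background on 0 arrays.

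Negative acute-phase genes, whose proteins drop in the blood during the response, had a median log2 fold change of −0.37 over 10 kept probes of 8 genes. By the same threshold 0 of them were higher, and 1 of the 9 measured in both groups was lower, or 11.1%, where 19.1% of all kept probes measured in both groups were lower. None passed after adjustment (0). Serpina6, which encodes the carrier of corticosteroids in blood, had −0.87, −1.17 and −1.74 in DIO and −2.32, −2.95 and −1.81 in DIO_CR_WR (log2 fold change −1.10 ± 0.35 SE, limma's adjusted p = 0.142, and −0.60 with spike-in scaling). The fetuin gene Ahsg passed the filter only through the DIO arrays, was well above background on 0 DIO_CR_WR arrays and has no fold.

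Of 9 genes for cytokines that induce the response, 6 were measured by 6 probes, with a median of 0.95. By the unadjusted threshold 3 were higher and 1 lower, and 0 passed after adjustment. Of all kept probes 5.29% were higher and 21% lower. Interleukin 6 (Il6) had log2 levels of −5.74, −6.23 and −6.28 in DIO and −5.31, −4.73 and −4.99 in DIO_CR_WR, 2.10-fold higher (log2 1.07 ± 0.24 SE, limma's adjusted p = 0.124, and 0.73 with the slide as a block). It was well above background on 3 DIO and 2 DIO_CR_WR arrays, as was interferon gamma (Ifng), with −6.12, −6.15 and −5.29 in DIO and −4.26, −3.76 and −3.75 in DIO_CR_WR (3.82-fold, log2 1.93 ± 0.29 SE, limma's adjusted p = 0.118).

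Of the receptors and transcription factors of the response, 26 probes of 19 genes were kept, with a median of 0.02. By the unadjusted threshold 5 were higher (19.2%) and 1 lower (3.85%), beside 5.29% and 21% of all kept probes, and 0 passed after adjustment. With spike-in scaling 14 were higher and 0 lower, where 20.8% of all kept probes were higher. With labelled age in the model 1 was higher, where 4.67% of all kept probes were. Il1rap, the shared chain of the interleukin 1 receptor, had −3.22, −3.49 and −3.71 in DIO and −2.71, −2.30 and −2.32 in DIO_CR_WR (2.04-fold, log2 1.03 ± 0.21 SE, limma's adjusted p = 0.122), and another probe of it had 1.04 ± 0.52 SE. Osmr, the receptor chain for oncostatin M, had 1.71, 1.57 and 1.35 in DIO and 2.32, 2.18 and 2.07 in DIO_CR_WR (1.56-fold, log2 0.65 ± 0.17 SE, limma's adjusted p = 0.130). Neither the first Il1rap probe nor Osmr overlapped between the groups.

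Receptors and partners of the member proteins had a median of 0.39 over 15 kept probes of 13 genes, 6 of them higher, 1 lower and 0 after adjustment. Those higher were 40% and those lower 6.67%, beside 5.29% and 21% of all kept probes. Fpr2, a formyl peptide receptor that serum amyloid A can engage on leukocytes, had −3.58, −4.22 and −4.84 in DIO and −2.03, −2.55 and −1.72 in DIO_CR_WR. It was 4.33-fold higher (log2 2.11 ± 0.37 SE, limma's adjusted p = 0.118, or 1.48 under a slide block), and its lowest and highest arrays were those of Saa3. Its relative Fpr1 was 1.77-fold higher (log2 0.83 ± 0.18 SE, limma's adjusted p = 0.123). Among partners of Lbp, chosen after their values were seen, Ly96, the co-receptor that holds lipopolysaccharide, had 0.49, 0.43 and 0.57 in DIO and 1.02, 1.04 and 1.08 in DIO_CR_WR (log2 0.55 ± 0.14 SE, limma's adjusted p = 0.130). Cd14 was at 0.39 ± 0.25 SE in log2. The lipocalin 2 receptor Slc22a17 had −0.05 ± 0.19 SE and the haptoglobin receptor Cd163 0.57 ± 0.25 SE (limma's adjusted p = 0.203). The 1 lower probe was that of Cd36 (log2 −0.66 ± 0.15 SE, limma's adjusted p = 0.124).

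Genes that move, store or sense metals had a median of −0.07 over 34 kept probes of 23 genes. Of the 33 measured in both groups 1 was higher (3.03%, beside 5.55% of all such probes). Another 3 were lower (9.09%, beside 19.1% of all such probes) and 0 passed after adjustment. With spike-in scaling the balance turned, to 10 higher and 0 lower, where 20.8% of all kept probes were higher. A probe of Mtf1, the metal-sensing factor, had log2 levels of −5.12, −5.07 and −4.83 in DIO. It passed the filter only through the DIO arrays, was well above background on 0 DIO_CR_WR arrays and has no fold. Its other probes had −0.35 ± 0.16 SE and 0.03 ± 0.15 SE. Ftl1, the light chain of the iron store ferritin, had 4.54, 4.60 and 4.75 in DIO and 4.07, 3.85 and 3.88 in DIO_CR_WR (log2 fold change −0.69 ± 0.16 SE, limma's adjusted p = 0.124, and −0.19 with spike-in scaling), while its other probe had −0.09 ± 0.29 SE. Glucocorticoid response genes, a list that includes Mt1, Mt2 and Lcn2, had a median of −0.09 over 14 kept probes of 11 genes, 1 of them higher, 2 lower and 0 after adjustment. The share higher was 7.14% and the share lower 14.3%, beside 5.29% and 21% of all kept probes. The kinase gene Sgk1 had 1.22, 1.31 and 0.22 in DIO and 1.86, 2.23 and 2.69 in DIO_CR_WR (2.54-fold, log2 1.35 ± 0.36 SE, limma's adjusted p = 0.132). A probe of Nr3c1, the glucocorticoid receptor, was at −0.62 ± 0.22 SE in log2 (limma's adjusted p = 0.157) and at −0.11 with spike-in scaling, and its other probe had 0.25 ± 0.19 SE.

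**Figure D4:**
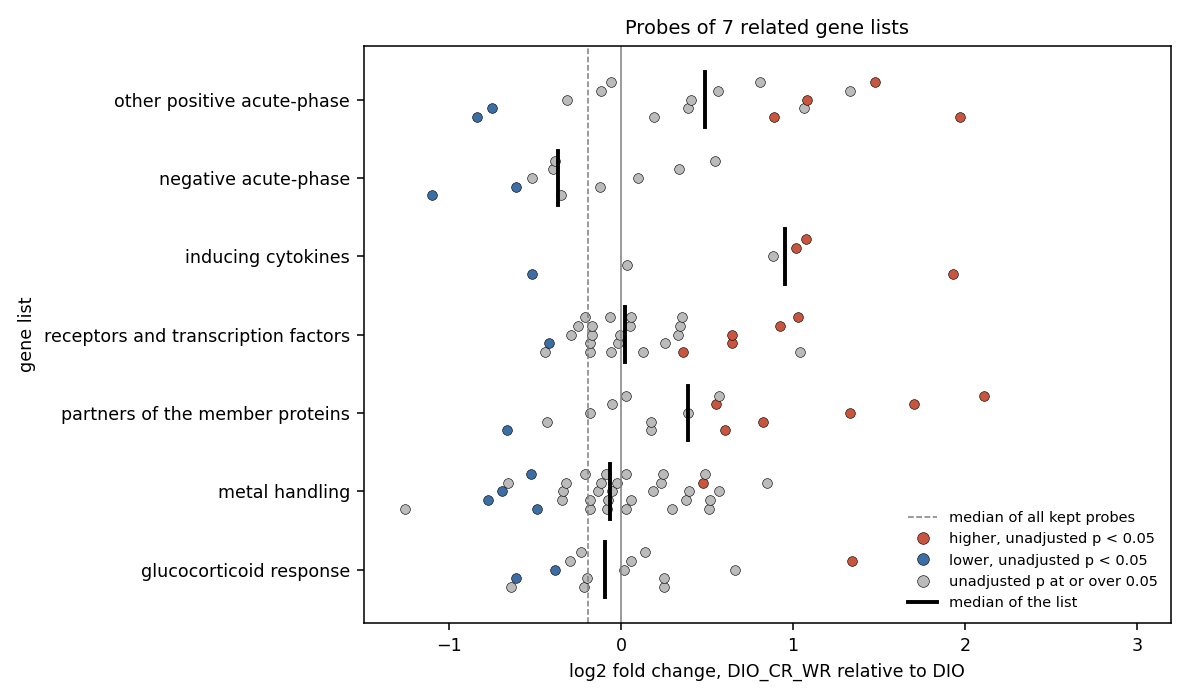
Log2 fold change of DIO_CR_WR relative to DIO for every kept probe of 7 related gene lists, 1 point per probe, red where higher and blue where lower at an unadjusted p under 0.05 in limma's test, with the list's median as a black bar and the median of all kept probes as a dashed line. The blue points of Apcs, Hamp2, Ahsg and a probe of Mtf1 were well above background on DIO arrays only. The medians run from −0.37 for negative acute-phase genes to 0.95 for the inducing cytokines, beside −0.19 for all kept probes.

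Over the 6 arrays, the 3 genes outside the list whose log2 levels followed Saa3 most closely were Stat3 (probe A_55_P1991219, Pearson r = 0.998), Fosl2 (0.993) and Tecpr2 (0.993). Stat3 is the factor that the interleukin 6 receptor activates, Fosl2 is an AP-1 transcription factor, and 565 kept probes had an r over 0.9 with Saa3. The level of that Stat3 probe ran only from 0.33 to 0.89, a log2 fold change of 0.36 ± 0.15 SE (limma's adjusted p = 0.189), and the other Stat3 probe had −0.02 ± 0.16 SE. For Mt2 the closest were Jmjd1c (r = 0.980), Spcs3 (0.976) and Ythdf2 (0.974), with log2 fold changes of 0.03, 0.04 and 0.03, and 82 kept probes over 0.9. These coefficients describe 6 arrays that share their scaling.

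Markers of cells that could supply these RNAs were read beside the members, each gene by its brightest probe, as the sum of signals in units of the array's 75th percentile. In bulk tissue, fewer cells of a type and less RNA per cell cannot be told apart. All 8 adipocyte markers were well above background on all 6 arrays, and their sum was 139 to 165 in DIO and 123 to 170 in DIO_CR_WR. Of 9 macrophage markers all 9 were, with overlapping sums of 55.3 to 86.4 and 61.5 to 74.5. By the unadjusted threshold 4 of their 16 probes were higher and 0 lower, where 5.29% of all kept probes were higher and 21% lower. These 4 were both probes of the scavenger receptor Msr1 (3.01- and 2.40-fold), Mrc1 (1.59-fold) and a probe of Cd68 (1.72-fold, with 0.858-fold for the other). Probes of Adgre1 and Cd14 and the dimmer Itgam probes had 1.31- to 1.45-fold. The Csf1r probes had 1.00-, 1.04- and 1.05-fold, Lyz2 1.06-fold, Marco 0.917-fold and the brightest Itgam probe 0.866-fold. Of 11 neutrophil markers 6 were above background throughout, with sums of 21.8 to 22.5 and 20.6 to 23.1. Csf3r, which was 0.672-fold, made up 36.7% to 71.7% of that sum, and without it the sums were 6.26 to 12.0 in DIO and 12.2 to 14.4 in DIO_CR_WR. The neutrophil probes went both ways. Of 12 kept ones 2 were higher by the unadjusted threshold, S100a8 (2.03-fold) and Ltf (2.31-fold), and 3 were lower. Ltf was well above background on 2 DIO and 2 DIO_CR_WR arrays. Those lower were Csf3r and probes of Mpo (0.566-fold) and Elane (0.559-fold), the last 2 well above background on 1 DIO_CR_WR array. These were 16.7% higher and 25% lower, beside 5.29% and 21% of all kept probes. Of 4 kept lymphocyte probes 2 were higher, Cd3g (3.04-fold) and Ccr7 (2.28-fold), where 5.29% of all kept probes were higher. Both lay higher without overlap between the groups, as 7.21% of all kept probes did. The summed lymphocyte levels overlapped (0.244 to 0.622 and 0.539 to 1.24). All these differences had adjusted p-values over 0.05 in limma's test over all probes.

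Of 10 hepatocyte markers 6 were well above background on all arrays and Apob on 0, with sums of 17.0 to 22.5 in DIO and 13.7 to 15.9 in DIO_CR_WR. Cyp2e1 made up 71.2% to 87.7% of that sum, and without it the sums overlapped (2.13 to 3.27 and 2.28 to 4.43). Of 12 kept hepatocyte probes 0 were higher by the unadjusted threshold, where 5.29% of all kept probes were. Of the 11 measured in both groups 3 were lower (27.3%, beside 19.1% of all such probes), and 0 passed after adjustment. These 3 were probes of Cyp2e1 (0.686-fold), Tat (0.531-fold) and Apoc3 (0.384-fold, with 1.39-fold for its other probe). Alb and Ttr, the defining products of hepatocytes, had log2 fold changes of 0.34 ± 0.38 SE and 0.55 ± 1.105 SE. The sums were 73.4 to 108 and 77.1 to 79.2 for 8 fibroblast markers, 18.9 to 28.0 and 23.7 to 24.1 for endothelial and 0.334 to 0.645 and 0.302 to 0.420 for epithelial markers. For skeletal muscle they were 124 to 147 and 83.4 to 114, and for 6 mesothelial markers, with Upk1b and Wt1 on 0 arrays, 0.332 to 0.404 and 0.193 to 0.285. Krt19 made up 45% to 79.6% of the mesothelial sum, and without it the sums overlapped (0.0788 to 0.133 and 0.078 to 0.147). The part of these cells in the differences of the serum amyloid A genes was not tested.

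Between 52.9% and 79.7% of non-control spots were well above background, with 69.1% to 79.7% on DIO and 52.9% to 66.7% on DIO_CR_WR arrays, and no spot was saturated (0 on each array). The 75th percentile of the signal was 4108 to 4452 on DIO and 5403 to 6370 on DIO_CR_WR arrays, so scaling to spike-in probes in place of that percentile moved the median log2 fold change of all kept probes from −0.19 to 0.31. All 3 serum amyloid A genes were higher under both scalings, and their log2 fold changes with spike-ins were 1.32 (Saa1), 2.92 (Saa2) and 2.23 (Saa3). With 3 arrays a group, precision is limited by their number.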

How the data were processed

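The 6 scanner files, 1 per sample, gave the values. Per the file headers and as deposited, they hold intensity values made with Feature Extraction (version 10.7.1.1 per the submitters' processing notes, 10.7.3.1 per the file headers), with background and trends within the array removed, no scaling between arrays, and flags of 0 or 1 per spot as deposited by the authors, under design 028005 and build mm9. A table of the whole series was not used here, since its column names do not match the titles.

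In R 4.3.3 with limma 3.58.1, 3671 control spots and outlier-flagged spots were left out, spots of a probe averaged as log2, and each array's 75th percentile subtracted. Probes well above background on at least 3 of 6 arrays with no missing value were kept. The model had group as its only term, was fitted over all kept probes and tested on simulated data. Well above background is the software's call. Every member probe is named, and from each list the 2 genes with the smallest p, with other genes named as chosen after their values were seen. Lists were matched by array symbol or RefSeq accession (21502 kept probes matched). Genes most like Saa3 and Mt2 exclude clone, Gm, LOC, accession and chromosome names. The members, lists and alternatives were chosen with earlier results of these data known. Promoters are RefSeq's (GRCm38.p6), searched with Python and aligned with Biopython 1.88. Motifs are from textbook knowledge, and the letters of 2 (C/EBP, metal response element) were corrected after matches had been seen. The alternatives were other background correction and scaling, filters, probe summaries, variance models, blocks for replicate and slide, age, another threshold and leaving out each array.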

Additional observations from a re-analysis of the deposited data

How the results depend on the processing

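The log2 fold changes of Saa1, Saa2, Saa3, Lcn2, the junction probe of Lbp and both Cp probes kept their sign in every one of the 20 alternatives that gave a value for them. Several of these are no check of the sign. The filters, the other variance model, the replicate block and the other threshold leave a probe's log2 fold change as it was. The slide block and slide 1 alone give the same value. Saa1 ranged from 0.68 to 1.32, Saa2 from 2.01 to 2.92 and Saa3 from 1.31 to 2.23, lowest with the slide as a block or normexp and highest with spike-in scaling. Signs turned elsewhere, and the cause was not tested. Hp was 0.31 with normexp and quantile normalization, 0.30 with quantile normalization, 0.025 with centring on the median, 0.41 with spike-in scaling, and 0.066 both with a slide block and on slide 1 alone. Mt1 was 0.10, 0.13 and 0.27 with normexp, quantile and spike-in scaling, and 0.093 both with a slide block and on slide 1 alone. Orm1 was 0.018, 0.007 and 0.27 with those 3 scalings. With age as a covariate the second Lbp probe was −0.13 and the second Mt1 probe 0.31. Leaving out each array took Mt2 from −0.10 to 0.23.

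The number of member probes higher at an unadjusted p under 0.05, 4 in the report, was 7 with normexp and quantile normalization, 7 with quantile normalization alone, 8 with spike-in scaling and 2 with age as a covariate, where 7.67%, 6.89%, 20.8% and 4.67% of all kept probes were higher, beside 5.29% in the report. The number lower was 1 with the slide as a block, where 2197 of all 38457 kept probes were lower. It was 1 with the mean of a gene's probes, where 5545 of 26177 genes were lower. Without each array it was 0 to 1, where 3425 to 10514 of all 38457 kept probes were lower. Over the whole array 6 probes passed the adjusted threshold with spike-in scaling, 48 when all 6 arrays had to be well above background, and 0 to 5361 without each array, and among the members 0 to 3 passed without each array. The top of both ranges came without DIO replicate 1. At an adjusted p under 0.1, 0 probes passed.

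With the replicate number as a block, 4 member probes were higher at an unadjusted p under 0.05, where 4.69% of all kept probes were, and 0 passed the adjusted threshold. Arrays of the same number did not deviate together (r = 0.00, −0.13 and −0.21 across probes, which are not independent), so the numbers were not treated as pairs.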
